A study of Mus musculus with 16 samples.

Results

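The genes described here encode the proteins of the synaptic vesicle and of transmitter release in nerve terminals. The 38 members are listed by gene symbol, and all 38 are among the 18167 genes of the deposited spinal cord RNA-Seq table. By role, 9 encode vesicle membrane and vesicle-associated proteins, 6 encode synaptotagmins, 9 belong to the fusion machinery, 7 to the active zone and its Rab proteins, 5 to vesicle retrieval, and 2 encode the transporters that load vesicles with glutamate.

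A vesicle filled with transmitter is tethered at the active zone, primed, and held ready until calcium enters the terminal and binds synaptotagmin, after which the SNARE proteins of vesicle and terminal membrane zip together and fuse them. NSF then takes the SNARE complex apart, while dynamin and its partners pinch the membrane off again for reuse. In the spinal cord the neuronal share of these messages comes from the cell bodies of motor neurons and of local excitatory and inhibitory interneurons. The messages for terminals of descending and sensory axons are made mostly in neurons outside the cord.

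The study sequenced spinal cord RNA from 16 male mice that carry a human PFN1 transgene under the Prnp promoter, 1 library per mouse, to compare an amyotrophic lateral sclerosis model before symptoms and at the end stage of disease. On a C57BL/6N background, the G118V mutants were of the strain Tg(Prnp-PFN1*G118V)838Kiaei/J, and the controls, Tg(Prnp-PFN1)850Kiaei/J, carry the human gene without the mutation, so no group lacks the transgene. Young mice were 50 days of age, with 3 controls (WY) and 3 mutants (MY). Old mice comprised 5 controls (WO), of which WO1 to WO3 had reached 190 days and WO4 and WO5 294 days, and 5 mutants at end stage (MO), aged 198, 190, 245, 224 and 175 days from MO1 to MO5. All young mice and the old mice numbered 1 to 3 were in library batch 1, and the old mice numbered 4 and 5 were in batch 2. RNA was extracted with TRIzol, made into TruSeq stranded mRNA libraries and sequenced on a NextSeq 500.

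Values are the log2(1 + FPKM) values that the authors adjusted for batch with ComBat, where FPKM is fragments per kilobase of transcript scaled to the size of the library. The deposited table holds no read counts, so the number of reads behind each value is not known here, and errors are those between mice. A fold change is the difference between group means on this scale and understates the change of genes with low FPKM. P-values come from limma over mice and are given as false discovery rates (FDR) over all 18167 genes. A gene passed the test at an FDR of at most 0.05. The fits take the adjusted values as given, so the errors do not include the uncertainty of the batch adjustment. The comparisons share mice, so they are not independent of each other.

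The libraries carried the positional marks of spinal cord. The 5 Hox genes examined were all present, with a summed FPKM of 122 ± 3.34 (SD, n = 5) in WO and 107 ± 10.4 (n = 5) in MO, and Hoxb8 was the most abundant of them. Markers of tissue outside the cord were low, at a summed FPKM in WO of 1.88 for 4 Schwann cell genes and 0.897 for 5 skeletal muscle genes, of which Ncmap and Acta1 were the most abundant. In MO these sums were 1.94 and 0.682. On the log2(1 + FPKM) scale the sensory neuron channel gene Scn10a did not exceed 0.02 in any mouse. Of 4 forebrain genes 3 were in the table, and their summed FPKM was 1.93 in WO and 2.04 in MO. In log2(1 + FPKM), Emx1 and Tbr1 stayed at or below 0.20 and 0.12, whereas Neurod6 lay between 1.39 and 1.73.

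A pair of libraries stood apart from their labels or their group. In MO5, labelled male, Xist was at 3.21 against at most 0.37 elsewhere, while Ddx3y stood at 1.95, with all other mice at 4.06 or more. The young control WY1 was lower than both other WY mice in 26 of the 38 members, and its median deviation from the WO mean over the members was -0.22, against 0.04 in WY2 and -0.05 in WY3. Against the mean of WY2 and WY3 it was lower by -1.99 for Sv2c, -1.47 for Syt2 and -0.83 for Rims1, which ranked 18, 26 and 116 from the lowest of all 18167 genes. Outside the members, the glycine transporter gene Slc6a5 was at 4.02 in WY1, with 5.93 in WY2 and 5.79 in WY3. The numbers of members that passed where 1 of these mice was used are given with and without it, and other counts include it.

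The members covered a wide range of levels. In WO the mean FPKM was 1588 for Snap25, 717 for Cplx1, 605 for Vamp1, 449 for Rab3a and 355 for Syp, and it was lowest for Unc13b at 2.70 and Slc17a7 at 1.52. All 38 had a mean log2(1 + FPKM) of at least 1 over the 16 mice, and 36 had a mean of at least 3. Mice of a group were close together for most members, with a median SD of 0.0403 in MY, 0.0806 in WO and 0.0907 in MO. The median SD was 0.125 in WY, where Sv2c had the largest SD of any member and group, 1.16.

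**Figure D1:**
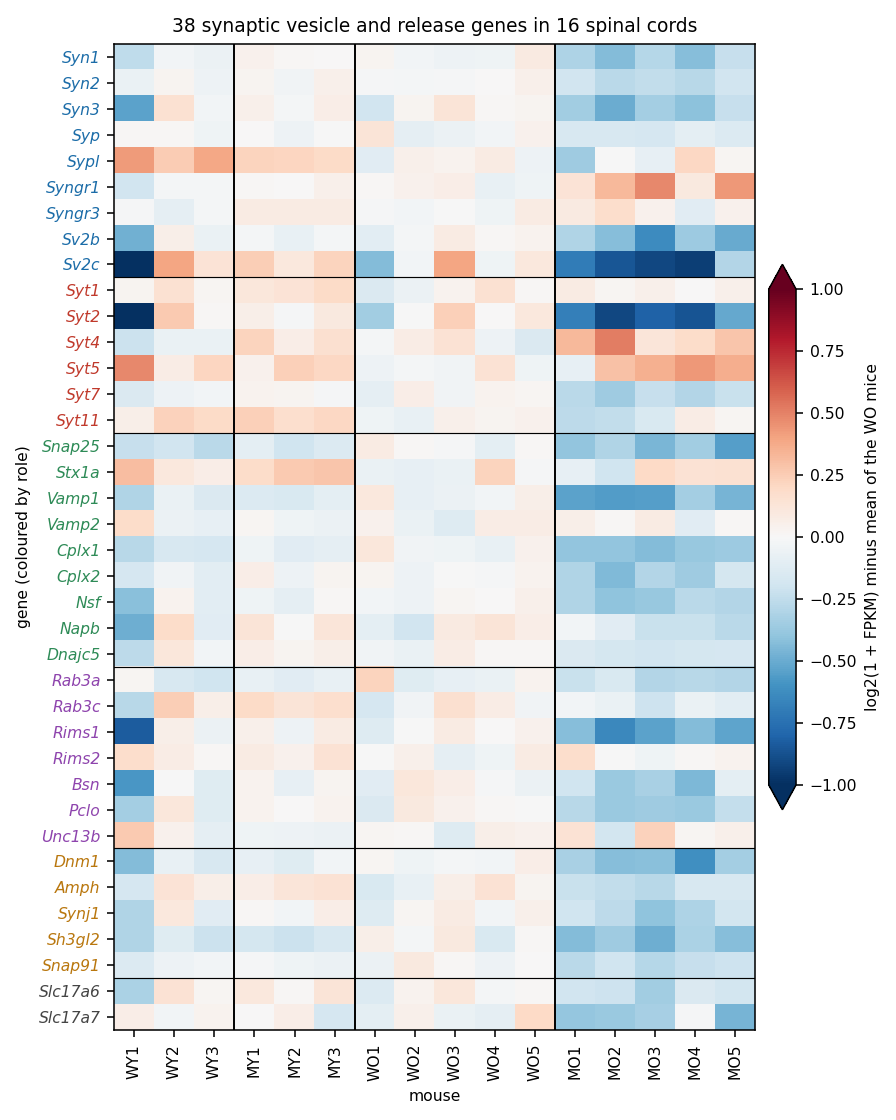
Log2(1 + FPKM) of the 38 members (vertical axis, by role) in the 16 mice (horizontal axis, by group), each minus the mean of the member in WO, with colour saturating at 1 above or below. The 5 MO mice had median deviations from -0.28 to -0.19, and WY1 had one of -0.22.

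The comparison of WO with MO asks what differed between old control mice and mutants at end stage. Most release genes were lower in the mutants: 25 of 38 members (65.8%) fell, whereas 12.9% of all genes tested did. The calcium sensor Syt2 and the vesicle protein Sv2c fell furthest, by 1.69-fold and 1.67-fold, and the active zone organiser Rims1 and the SNARE gene Vamp1 followed at 1.43-fold and 1.41-fold. Only 3 members rose (7.89%), with 15.0% of all genes rising, and these were Syngr1, Syt4 and Syt5. The median log2 fold change was -0.24 over the members and 0.00035 over all genes. In a whole tissue, fewer neurons and less RNA per neuron cannot be told apart.

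Most of the decreases were below 1.5-fold. The 2 members lower by at least 1.5-fold at the same FDR were Syt2 and Sv2c, or 5.26% of the list against 0.517% of all genes, and 0 were higher by as much in limma, against 4.08%. In 22 members every MO mouse lay below every WO mouse (57.9%), which held for 8.65% of all genes, and in 1 member, Syngr1, every MO mouse lay above, against 11.3% of all genes. Among genes with a mean of at least 3, 24 of 36 members (66.7%) and 17.9% of 8597 genes fell. The share of all genes that fell was 18.8% after quantile normalization, where 25 members fell. It was 7.63%, with 21 members, after centring each mouse on the mean of the study's 64 neuron markers that are not members. Of these markers 28 fell and 6 rose, Lpl and Sla the most. Their mean therefore fell less than that of the markers without these increases. Without MO5, 23 members fell and 2 rose, all of them among the 28, and 12.1% of all genes fell. The count of rising members went from 3 to 1 without WO5, to 0 within batch 1 alone, and to 0 without both 294-day WO mice. In these last 2 settings 19 and 20 members fell, against 5.86% and 6.85% of all genes.

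**Figure D2:**
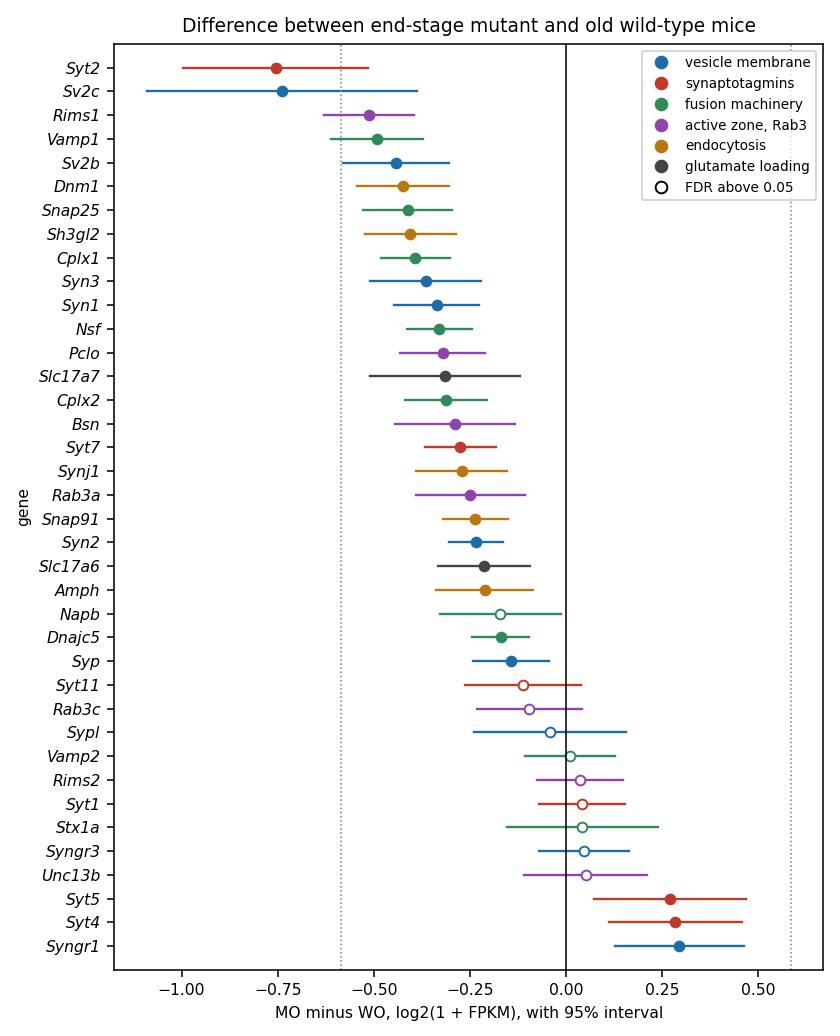
Log2 fold change from WO to MO (horizontal axis) of each member (vertical axis, by role), with bars for the 95% confidence interval from 5 mice a group, filled points at an FDR of at most 0.05 and dotted lines at a 1.5-fold change. Syt2 at -0.76 and Sv2c at -0.74 lie beyond the line for decreases, and 25 filled points lie below 0.

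Of the 9 vesicle membrane genes 6 fell and 1 rose, and their median was -0.23. Sv2c, a glycoprotein of the vesicle membrane, was at 4.36, 4.77, 5.19, 4.76 and 4.90 in WO1 to WO5 and at 4.10, 3.94, 3.88, 3.86 and 4.50 in MO1 to MO5. The groups overlapped in a single pair of mice, as MO5 lay above WO1. It fell by 0.74 (SE 0.16, FDR = 0.00575), by 0.80 within batch 1 and 0.65 within batch 2. When all 4 groups were fitted together, a fit in which the widely spread WY mice enter the variance, its FDR was 0.0830, and over the 20 alternatives it ranged from 0.00201 to 0.0830. Its close relative Sv2b was at 5.02, 5.11, 5.21, 5.14 and 5.16 in WO and at 4.83, 4.71, 4.50, 4.76 and 4.63 in MO. Here the groups were fully apart, and Sv2b fell by 0.44 (SE 0.06, FDR = 0.00047).

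The synapsins tie vesicles into the reserve pool of the terminal, and all 3 fell. Syn2, the vesicle membrane gene with the smallest p-value, was at 6.29, 6.29, 6.30, 6.31 and 6.36 in WO and at 6.11, 6.04, 6.06, 6.03 and 6.12 in MO. No mouse of either group entered the range of the other, and the decrease was -0.23 (SE 0.03, FDR = 0.000395). Syn1 changed by -0.34 and Syn3 by -0.36. Synaptophysin (Syp), a major protein of the vesicle membrane, changed by -0.14 with an FDR of 0.0351. That call was lost without any of MO1, MO2, MO3, MO5, WO1, WO4 or WO5, at an FDR of 0.056 to 0.0845. It was also lost within batch 1 (0.198), without both 294-day mice (0.143), with the pseudocount of 0.1 (0.0684), with an intensity trend (0.0819) and after centring on neuron markers (-0.09, 0.235). After quantile normalization the change was -0.24, and the FDR ranged from 0.012 to 0.235 over all alternatives. Its relative Sypl, which is expressed well beyond neurons, differed by -0.04 (95% confidence interval -0.24 to 0.15), and its sign was positive after centring on neuron markers.

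Synaptogyrins are membrane proteins of the same vesicle, and here Syngr1 went the other way. It was at 6.52, 6.55, 6.57, 6.44 and 6.47 in WO and at 6.64, 6.84, 6.99, 6.61 and 6.95 in MO. Every mutant was above every control, although MO1 and MO4 only just, and Syngr1 rose by 0.29 (SE 0.08, FDR = 0.0148). The rise was 0.27 within batch 1 and 0.33 within batch 2, and the FDR was 0.0982 with batch 1 alone and 0.102 without both 294-day mice, in a range of 0.00458 to 0.102 over the alternatives. Syngr3 differed by 0.05 (-0.07 to 0.16) and did not pass.

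The synaptotagmins were the most divided group, with 2 of 6 lower, 2 higher and a median of -0.04 that became 0.02 after centring on neuron markers. Syt2, a fast calcium sensor for transmitter release, was at 5.93, 6.27, 6.51, 6.28 and 6.38 in WO and at 5.59, 5.36, 5.47, 5.41 and 5.76 in MO. The highest mutant, MO5, stayed below the lowest control, WO1. Syt2 fell by 0.76 (SE 0.11, FDR = 0.000545), by 0.76 in batch 1 and 0.74 in batch 2, and passed under all 20 alternatives. Syt1, the related sensor that serves many forebrain synapses, was at 5.45, 5.54, 5.63, 5.75 and 5.61 in WO and at 5.68, 5.62, 5.65, 5.60 and 5.65 in MO. Its groups overlapped fully, and the difference was 0.04 (-0.07 to 0.15). Syt7, a slower sensor with high calcium affinity, changed by -0.27 and passed.

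Syt4 and Syt5 rose. Syt4, a synaptotagmin of dense-core vesicles, was at 5.76, 5.85, 5.93, 5.73 and 5.64 in WO and at 6.10, 6.29, 5.90, 5.96 and 6.06 in MO. Only MO3 fell inside the control range, and the rise was 0.28 (SE 0.08, FDR = 0.0201). Syt5 was at 4.06, 4.09, 4.07, 4.25 and 4.06 in WO and at 4.02, 4.39, 4.46, 4.53 and 4.47 in MO. Both groups held a distant mouse, WO4 above its group and MO1 below its own, and MO1 was lower than every control. Syt5 rose by 0.27 (SE 0.09, FDR = 0.0453). The Syt4 call was lost without WO5 (0.0522), within batch 1 (0.171) and without both 294-day mice (0.134), and its FDR ranged from 0.00442 to 0.171. The Syt5 call was lost without any of WO1, WO2, WO3, WO5, MO2, MO3, MO4 or MO5, at 0.0824 to 0.0969, and also within batch 1 (0.263), without both 294-day mice (0.0936) and with the pseudocount of 0.1 (0.0588), and over all alternatives the FDR ranged from 0.000654 to 0.263. Syt11, at 247 FPKM in WO the most abundant synaptotagmin, differed by -0.11 (-0.26 to 0.04).

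In the fusion machinery 6 of 9 members fell, 0 rose (also 0 at an unadjusted p below 0.05 in limma), and the median was -0.31. Vamp1, a vesicle SNARE protein prominent in the spinal cord and brain stem, was at 9.35, 9.16, 9.18, 9.22 and 9.30 in WO and at 8.70, 8.68, 8.69, 8.90 and 8.77 in MO. The groups stood well apart, and Vamp1 fell by 0.49 (SE 0.05, FDR = 0.000102), by 0.54 in batch 1 and 0.42 in batch 2. Vamp2, the vesicle SNARE that predominates in the forebrain, ranged from 7.07 to 7.27 in WO and from 7.08 to 7.27 in MO. Its difference was 0.01 (-0.11 to 0.13), and the sign depended on the alternative. The complexin Cplx1, which binds the assembled SNARE complex and clamps it until calcium arrives, was at 9.60, 9.45, 9.44, 9.41 and 9.53 in WO. In MO it was at 9.10, 9.09, 9.05, 9.11 and 9.12, below every control. Cplx1 fell by 0.39 (SE 0.04, FDR = 7.45e-05), the smallest p-value of any member.

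Of the other fusion genes 4 fell. Snap25, the SNARE of the terminal membrane and the most abundant member, changed by -0.41 (-0.69 after quantile normalization), and its partner Stx1a differed by 0.04 (-0.15 to 0.24). Cplx2 changed by -0.31 and the ATPase Nsf by -0.33, whereas the NSF adaptor Napb did not pass at -0.17 (-0.33 to -0.01, FDR = 0.103) and passed only without WO2 (0.0371, in a range of 0.0371 to 0.755). The cysteine string protein gene Dnajc5, a chaperone of Snap25, changed by -0.17, or -0.11 after centring on neuron markers, with an FDR of 0.121 within batch 1 and a pass in all other alternatives, from 0.00402 upward.

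Of the active zone genes 4 of 7 fell, 0 rose (0 at an unadjusted p below 0.05 in limma), and the median was -0.25. Rims1, which gathers calcium channels and primed vesicles at the release site, was at 4.09, 4.21, 4.29, 4.22 and 4.25 in WO and at 3.79, 3.57, 3.67, 3.78 and 3.68 in MO. All mutants were below all controls, and Rims1 fell by 0.51 (SE 0.05, FDR = 7.53e-05), by 0.52 in batch 1 and 0.50 in batch 2. Rims2 ranged from 3.79 to 3.97 in WO and from 3.84 to 4.06 in MO, a difference of 0.04 (-0.08 to 0.15). The giant scaffold genes Bsn and Pclo changed by -0.29 and -0.32, and for Bsn MO5 at 3.33 reached into the control range. Rab3a, the GTPase that brings vesicles to the active zone, changed by -0.25, and the less abundant Rab3c by -0.10 (-0.23 to 0.04), which did not pass. The Rab3a call was lost within batch 1 (0.184), without both 294-day mice (0.0622) and after centring on neuron markers (0.0587), and its FDR ranged from 0.00634 to 0.184. The priming gene Unc13b differed by 0.05 (-0.11 to 0.21).

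Every member of vesicle retrieval fell, 5 of 5, with a median of -0.27. Dnm1, the GTPase that severs the neck of the forming vesicle, was at 8.10, 8.04, 8.06, 8.05 and 8.15 in WO and at 7.76, 7.65, 7.66, 7.47 and 7.74 in MO. The lowest control stood well clear of the highest mutant. Dnm1 fell by 0.42 (SE 0.05, FDR = 0.000272), by 0.38 in batch 1 and 0.50 in batch 2. Endophilin (Sh3gl2), which bends the membrane and recruits synaptojanin, changed by -0.40. The lipid phosphatase Synj1, which strips the clathrin coat, changed by -0.27, the clathrin adaptor Snap91 by -0.24 and the dynamin partner Amph by -0.21. Within batch 1 alone Synj1 and Amph had FDRs of 0.066 and 0.12, and Amph had 0.113 without both 294-day mice and 0.0588 after centring on neuron markers. Over the alternatives the FDR ranged from 0.00224 to 0.066 for Synj1 and from 0.00569 to 0.12 for Amph.

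Both vesicular glutamate transporters fell. Slc17a6, the form of spinal interneurons, was at 5.76, 5.94, 6.01, 5.88 and 5.91 in WO and at 5.71, 5.69, 5.55, 5.76 and 5.72 in MO. The groups met without overlapping at WO1 and MO4, and Slc17a6 fell by 0.21 (SE 0.05, FDR = 0.0135). The call was lost within batch 1 (0.0976) and without both 294-day mice (0.0682), and the FDR ranged from 0.00534 to 0.0976 over the alternatives. Slc17a7, the form of cortical and sensory neurons and the lowest member here, changed by -0.31 with an FDR of 0.0225, and by -0.53 with the pseudocount of 0.1 in place of 1. Leaving out MO2, MO5, WO2 or WO5 gave it an FDR of 0.0524, 0.0525, 0.0504 or 0.0542. It was 0.0524 after centring on neuron markers and 0.094 without both 294-day mice, in a range of 0.00207 to 0.094 over the alternatives, and MO4 at 1.32 lay among the controls.

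**Figure D3:**
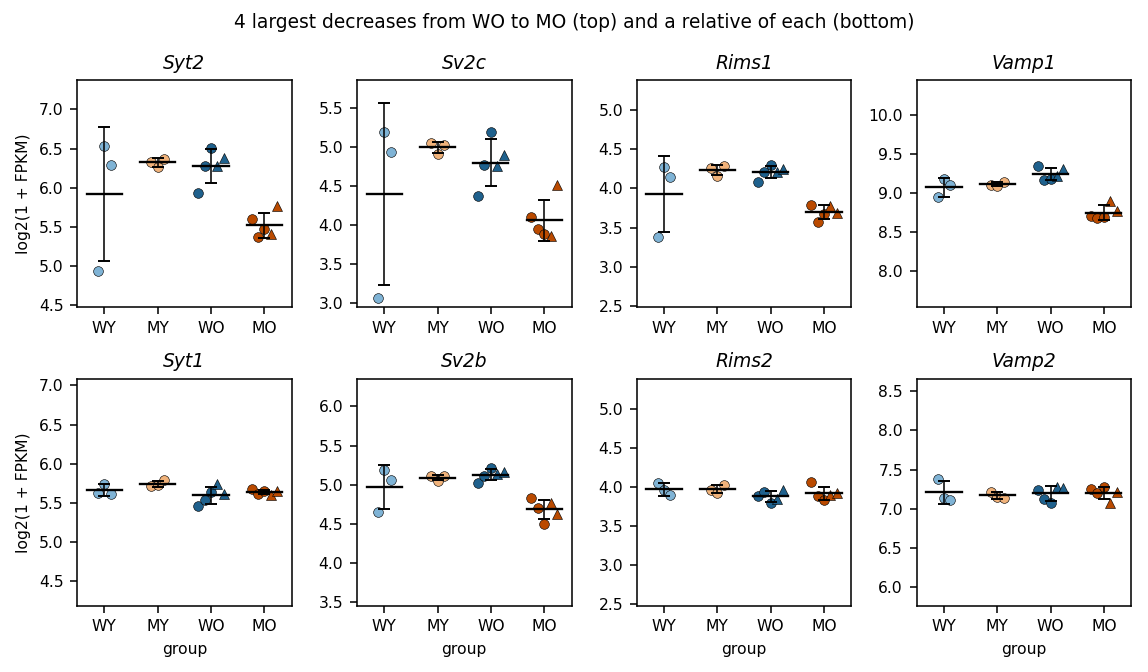
Log2(1 + FPKM) (vertical axis, the same span in every panel) in each mouse by group (horizontal axis) for the 4 members with the largest decreases from WO to MO (top) and a relative of each (bottom), with circles for batch 1, triangles for batch 2, lines for means and bars for the SD. In the top row all MO mice lie below all WO mice except MO5 for Sv2c, and WY1 is the low WY point for Syt2, Sv2c and Rims1.

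Pairs of relatives were compared within each mouse as the difference of their log2(1 + FPKM) values. The 13 pairs were listed with results of these data known. Exact permutation tests over the old mice were run on them and looked at, then removed for that reason. The differences are therefore a description, and no test result is given. Syt2 minus Syt1 ran from 0.48 to 0.88 in WO and from -0.25 to 0.11 in MO, so that Syt2 led in every old control and the order was mixed in the mutants. Vamp2 minus Vamp1 ran from -2.11 to -1.95 in WO and from -1.82 to -1.42 in MO, with Vamp1 the higher in all of them. Rims2 minus Rims1 ran from -0.50 to -0.20 in WO and from 0.12 to 0.31 in MO, which puts Rims1 above Rims2 in each old control and below it in each mutant. In these 3 pairs the groups did not overlap, and in the other 10 they did. The WY1 mouse had values of -0.69, -1.57 and 0.68 for the same pairs, all within or beyond the range of MO.

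Other genes of the terminal and of the facing membrane also tended downward. Of 55 further presynaptic genes 22 fell and 6 rose, with a median of -0.09. None of these passed both the FDR and a 1.5-fold change, and the smallest p-value belonged to the Rab3 effector Rph3a, which changed by -0.56 (FDR = 2.16e-05). Of 25 postsynaptic genes 12 fell and 1 rose, with a median of -0.16, and Iqsec1 led them by p-value at -0.25 (FDR = 0.00102). The list of neuron markers that the study used holds 7 of the members. Of its 64 other genes 28 fell and 6 rose, with a median of -0.13, among them the neurofilament genes Nefl at -0.75 and Nefm at -0.70. The largest changes on that list were increases, of 2.47 for the lipase gene Lpl and 1.27 for Sla.

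Markers of the main cell types moved between the same groups. All 7 motor neuron markers were present, 5 fell and 0 rose (0 at an unadjusted p below 0.05 in limma), and their median was -0.49. Their summed FPKM was 131 ± 11.2 (SD, n = 5) in WO and 103 ± 10.3 in MO, with Prph the most abundant, and Chat changed by -0.67. Of 4 inhibitory neuron markers 2 fell, with a summed FPKM of 224 ± 10.2 and 175 ± 11.6, Slc32a1 the most abundant in WO and Gad1 in MO, and Slc6a5 at -0.78. Of 9 microglia markers 8 rose, with a median of 1.28 and Cd68 at 3.22. Of 8 astrocyte markers 7 rose, with a median of 0.61, sums of 1986 ± 90.1 and 3793 ± 402 and Gfap, the most abundant, at 1.60. Of 7 oligodendrocyte markers 2 fell, with a median of -0.30. Their sums of 11487 ± 7117 and 13017 ± 7848 were dominated by Mbp, whose log2(1 + FPKM) was 5.36 in WO4, 14.11 to 14.22 in the other batch 2 mice and 12.16 to 12.61 in the old mice of batch 1. The part of these shifts in the decrease of the release genes was not tested.

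Among the marker lists of other tissue, 1 of 5 sensory neuron genes rose and 1 fell, 1 of 5 muscle genes fell and 1 of 5 Hox genes fell. In limma 0 of 4 Schwann cell genes and 0 of 3 forebrain genes passed, and 0 had an unadjusted p below 0.05. The median log2 fold change was 0.00 for sensory neuron, 0.04 for Schwann cell, -0.01 for muscle, 0.01 for forebrain and -0.11 for Hox genes.

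The comparison of MY with MO follows the mutant mice from 50 days to end stage. Of the 38 members 27 were lower at end stage (71.1%), against 12.5% of all genes, and 0 were higher in limma, against 13.1%. At an unadjusted p below 0.05, 1 member was higher, Syngr1 at 0.27 (FDR = 0.0633). In 28 members all MO mice lay below all MY mice (73.7%), which held for 15.9% of all genes. Sv2c and Syt2 were the 2 members lower by at least 1.5-fold, 5.26% against 0.787% of all genes, and 0 were higher by as much in limma, against 4.11%. The median was -0.28 over the members and 0.0047 over all genes. The young mice were all of batch 1, so batch enters this comparison only through MO4 and MO5. With batch 1 alone 27 members again fell, 25 of them the same, against 12.2% of all genes.

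Sv2c, Syt2, Rims1 and Sv2b had the largest decreases with age in the mutants. Sv2c was at 5.04, 4.90 and 5.02 in MY1 to MY3, above every MO mouse, and fell by 0.93 (SE 0.14, FDR = 0.0022). Syt2 was at 6.33, 6.26 and 6.37 and fell by 0.80 (SE 0.09, FDR = 0.000622). The young values of both sat within the range of the old controls. Rims1 was at 4.26, 4.16 and 4.29 in MY and fell by 0.54 (SE 0.06, FDR = 0.000615). Sv2b was at 5.11, 5.05 and 5.11 and fell by 0.41 (SE 0.07, FDR = 0.00467). When all 4 groups were fitted together Sv2c had an FDR of 0.0670, in a range of 0.000324 to 0.0670 over 16 alternatives.

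By role, those lower at end stage were 6 of 9 vesicle membrane genes, 3 of 6 synaptotagmins, 7 of 9 fusion genes, 5 of 7 active zone genes, 5 of 5 retrieval genes and 1 of 2 glutamate transporters. Syt11 (-0.32), Napb (-0.25) and Rab3c (-0.26) passed here, the last 2 at -0.16 each after centring on neuron markers, while Slc17a7 at -0.28 (-0.52 to -0.05) did not. The 10 further members that did not pass were Sypl, Syngr1, Syngr3, Syt1, Syt4, Syt5, Stx1a, Vamp2, Rims2 and Unc13b, with differences from -0.25 for Sypl (-0.49 to -0.01) to 0.27 for Syngr1 (0.06 to 0.48). Of the 27 decreases 17 passed under all 16 alternatives. Syp, Rab3a, Bsn, Napb, Syt11, Snap25 and Sh3gl2 were lost without MY1 or without MY3, Syp, Rab3a, Bsn and Syt11 also without MY2, and Syp, Rab3a, Bsn, Napb and Syt11 also without 1 or more of the MO mice, at FDRs of 0.0506 to 0.139. Centring on neuron markers ended the calls of Syp, Syt11, Snap25, Napb, Rab3a, Bsn, Sh3gl2 and Snap91, at 0.0591 to 0.569, and the fit of all 4 groups those of Syp, Sv2c, Napb, Rab3a, Rab3c and Bsn, at 0.0581 to 0.134. Napb (0.0771) and Rab3a (0.101) were lost within batch 1, Syp, Snap25 and Rab3a with an intensity trend (0.0836 to 0.114), Syp and Rab3a with the pseudocount of 0.1 (0.0967 and 0.0662), and Syp among genes with a mean of at least 1 (0.0553). Without MO1, Syngr1 (0.0343) and Syt5 (0.0419) rose, and without MO4, Syngr1 rose (0.0252) while Sypl (0.0376) and Slc17a7 (0.00664) fell. Slc17a7 also fell within batch 1 (0.0161), after quantile normalization (0.0195) and in the fit of all 4 groups (0.0388), Sypl within batch 1 (0.0332), and Syngr1 rose in the fit of all 4 groups (0.0209) and after centring on neuron markers (0.0177). Over the alternatives the FDR ranged from 0.0177 to 0.168 for Syngr1, from 0.0419 to 0.919 for Syt5, from 0.0332 to 0.266 for Sypl and from 0.00664 to 0.24 for Slc17a7. Without MO5, 25 members fell, against 11.7% of all genes.

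In the other neuronal lists decreases also outnumbered increases. Of the 55 presynaptic genes 25 were lower at end stage and 2 higher. Of the postsynaptic genes 14 were lower and 1 higher, and Lrrtm2 had the smallest p-value. Of the study's other neuron markers 33 were lower and 5 higher, with Nefm at -0.78, Nefl at -0.74, Lpl at 2.06 and Sla at 1.18. Of the motor neuron markers 5 were lower, of the inhibitory markers 3, and of the oligodendrocyte markers 4, while 8 microglia and 5 astrocyte markers were higher.

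The comparison of WY with WO concerns age in the control strain. A single member passed, or 2.63% of the list against 1.12% of all genes, and 0 passed a 1.5-fold change as well, against 0.253% of all genes. At an unadjusted p below 0.05 there were 9 members (23.7%) and 13.5% of all genes, and 6 of the 9 were higher in the old mice (15.8%, against 5.48% of all genes). The median over the members was 0.09, and it was 0.0093 without WY1. Sypl was at 5.62, 5.45 and 5.58 in WY and at 5.08, 5.25, 5.23, 5.27 and 5.14 in WO. Every old control was below every young control, and Sypl fell by 0.36 (SE 0.06, FDR = 0.0424). The call was lost without any of WO1, WO2, WO3, WO5, WY1, WY2 or WY3, at an FDR of 0.0577 to 0.166. It was also lost within batch 1 and without both 294-day mice, which leave the same mice (0.0977), in the fit of all 4 groups (0.0822), after quantile normalization (0.0624), after centring on neuron markers (0.0523) and with the pseudocount of 0.1 (0.0879), and over 17 alternatives the FDR ranged from 0.0342 to 0.183. Next in order was Snap25 at 0.23 (0.12 to 0.34, FDR = 0.0714), higher in all 5 old mice than in all 3 young ones. Between the same groups 4 of 7 oligodendrocyte markers were lower in the old mice, with a median of -0.67, 2 of 8 astrocyte markers were lower, with a median of -0.13, and 2 of the 55 presynaptic genes were lower. Of the motor neuron, inhibitory neuron and microglia markers 0 passed in limma, and 2, 0 and 0 had an unadjusted p below 0.05.

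The comparison of WY with MY asks whether genotype mattered before symptoms. In limma 0 members passed, and 0.00550% of all genes did. At an unadjusted p below 0.05 there were 4 members (10.5%) and 7.16% of all genes, namely Syt4 at 0.27 (0.11 to 0.43), Syngr3 at 0.13 (0.02 to 0.23), Cplx1 at 0.12 (0.00 to 0.24) and Sypl at -0.15 (-0.28 to -0.01), with FDRs of 0.564 to 0.692. In these 4 the young groups did not overlap. After centring on neuron markers the sizes were 0.20 for Syt4, 0.06 for Syngr3, 0.05 for Cplx1 and -0.22 for Sypl. In all, every MY mouse lay above every WY mouse in 6 members (15.8%), against 6.15% of all genes, and below in 1 (2.63%), against 7.52%. The count at the FDR threshold was 0 under all 13 alternatives. The median over the members was 0.11 with WY1 and 0.023 without it, so most of it rested on that mouse. For the members that fell furthest at end stage the intervals were wide, at 0.40 (-0.56 to 1.36) for Syt2, 0.59 (-0.70 to 1.89) for Sv2c and 0.31 (-0.25 to 0.86) for Rims1. Without WY1 these estimates were -0.09, -0.07 and 0.03, so their sizes rested on that mouse.

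Whether the change with age differed by genotype was tested as (MO - MY) - (WO - WY) in a fit of the 16 mice. In 20 members it was negative and passed (52.6%), against 7.19% of all genes, meaning that the change with age in the mutants lay below that in the controls. In limma 0 members were positive and passed, against 10.5% of all genes, and 1 was positive at an unadjusted p below 0.05, Syt5 at 0.36 (0.04 to 0.69, FDR = 0.116), which passed without MO1 (0.0141) and after centring on neuron markers (0.0423), where Syngr1 did too (0.32, FDR = 0.0383). The median was -0.33 over the members and 0.0073 over all genes. Without WY1 16 members passed, 15 of them the same, and without MO5 20 passed, all of them the same. Of all genes 4.85% and 6.92% were then negative and passed. Leaving out any other single mouse gave 14 (without MY1 or MY3) to 24 (without WY2), against 4.18%, 4.39% and 10.2% of all genes. Without both 294-day mice 14 passed, against 4.02% of all genes. Within batch 1 alone 11 passed, all of them among the 20, against 4.35% of all genes.

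Negative past 1.5-fold were 2 members, Rims1 and Syt2, 5.26% against 0.963% of all genes, and 0 were positive past it in limma, against 4.65%. For Rims1 the young controls were at 3.38, 4.27 and 4.15, of which WY1 was far below the others, and the difference was -0.82 (SE 0.20, FDR = 0.0122). For Syt2 the young controls were at 4.94, 6.53 and 6.29, and the difference was -1.16 (SE 0.36, FDR = 0.0395). Both sizes were smaller without the low WY1, at -0.54 for Rims1 and -0.67 for Syt2, and both still passed, while Rims1 did not pass within batch 1 (0.0664). The Syt2 call was lost without any of MO2, MO3, MO4, MY1, MY2, MY3, WO2, WO3, WO4 or WO5, at an FDR of 0.0566 to 0.0854, within batch 1 (0.133) and without both 294-day mice (0.0995), and its FDR ranged from 0.00768 to 0.133 over 25 alternatives. The count past 1.5-fold was 7 without WY2, 5 without WY3, 4 without MO1, 3 without MO5, MY2 or WO1, 2 without MO4, and 1 without any other single mouse. Sv2c had the largest estimate, -1.33 (-2.39 to -0.27), but did not pass (FDR = 0.0795), and passed without WY2 (0.0184). Without WY1 it was at -0.67 (FDR = 0.106), about the same as Syt2, so much of its size rested on that mouse, and the FDR ranged from 0.0184 to 0.181.

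Dnm1, Cplx1 and Sv2b had less spread among the WY mice than Rims1 and Syt2, and smaller errors. Dnm1 was at 7.64, 8.01 and 7.92 in WY, at 7.96 in MY2 and 8.05 in MY3 with MY1 between them, and its difference was -0.57 (SE 0.11, FDR = 0.00215). Cplx1 was at 9.21, 9.32 and 9.32 in WY and at 9.44, 9.38 and 9.40 in MY, and its difference was -0.51 (SE 0.06, FDR = 9.47e-05). Sv2b was at 4.65, 5.19 and 5.06 in WY, again with a low WY1, and its difference was -0.57 (SE 0.14, FDR = 0.0116). The 9 members that passed under all 25 alternatives were Syn1, Syt7, Snap25, Vamp1, Cplx1, Cplx2, Nsf, Dnm1 and Sh3gl2, of which 5 belong to the fusion machinery. By role, 4 vesicle membrane genes, 2 synaptotagmins, 6 fusion genes, 3 active zone genes, 5 retrieval genes and 0 glutamate transporters passed in limma (1 at an unadjusted p below 0.05). Of the transporters Slc17a6 was at -0.34 (-0.60 to -0.09), or -0.21 without WY1, and Slc17a7 at -0.26 (-0.54 to 0.03). Amph, Bsn, Dnajc5, Syn3 and Synj1 were lost without WY1, MY1 or MY3, and, depending on the gene, without others of MO1 to MO4, MY2, WO2 to WO5 and WY3, at FDRs of 0.0511 to 0.123. Without WY1 the sizes were -0.33 for Syn3, -0.35 for Bsn and -0.18 for Dnajc5, against -0.53, -0.52 and -0.28 with it. Within batch 1 these 5 genes, Sv2b and Pclo did not pass, at 0.0515 to 0.149, and without both 294-day mice the 5 did not, at 0.0651 to 0.12. Centring on neuron markers ended the calls of Syn2 (0.0613), Snap91 (0.0728), Dnajc5 (0.115) and Amph (0.123), the pseudocount of 0.1 those of Dnajc5 (0.0559) and Amph (0.0607), and quantile normalization that of Amph (0.0503), while Rab3a passed after quantile normalization (0.0123). Slc17a6 passed without WO1 (0.0438) or WY2 (0.0135), Slc17a7 without MO4 (0.0387), Rab3a without WY1 (0.0361), and Napb (0.0129) and Rab3c (0.0403) without WY2. Of the other lists, 19 presynaptic genes were lower and 3 higher, with Rph3a at -0.71, Slc18a3 at -0.64 and Syngr2 at 0.62 among those past 1.5-fold. There were 5 postsynaptic genes lower and 1 higher, 18 of the study's other neuron markers lower and 5 higher, 5 motor neuron markers lower, and 8 microglia and 4 astrocyte markers higher.

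The members lie on many chromosomes and share no single locus. Syt2 spans chr1:134646677-134762593 on the plus strand, Rims1 chr1:22286251-22805994 on the minus strand and Sv2c chr13:95954594-96132577 on the minus strand in GENCODE M21 on GRCm38. As these 3 had the largest decreases from WO to MO, the 250 bases before their RefSeq starts, which for Syt2 and Rims1 lie outside the GENCODE span, are given from the RefSeq promoter table on GRCm38.p6, 5′ to 3′ on the strand of the gene, at chr1:134646362-134646611 (plus) for Syt2, chr13:96132578-96132827 (minus) for Sv2c and chr1:22806159-22806408 (minus) for Rims1. Capitals mark matches to the motifs searched on both strands, the GC box GGGCGG, which reads CCGCCC on the other strand, the E-box CACGTG and the cAMP response element TGACGTCA.
Syt2: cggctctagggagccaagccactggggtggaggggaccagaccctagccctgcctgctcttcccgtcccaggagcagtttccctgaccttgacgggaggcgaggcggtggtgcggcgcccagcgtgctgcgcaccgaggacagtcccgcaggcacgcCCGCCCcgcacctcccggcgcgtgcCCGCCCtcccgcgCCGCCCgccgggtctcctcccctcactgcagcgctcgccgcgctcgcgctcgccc
Sv2c: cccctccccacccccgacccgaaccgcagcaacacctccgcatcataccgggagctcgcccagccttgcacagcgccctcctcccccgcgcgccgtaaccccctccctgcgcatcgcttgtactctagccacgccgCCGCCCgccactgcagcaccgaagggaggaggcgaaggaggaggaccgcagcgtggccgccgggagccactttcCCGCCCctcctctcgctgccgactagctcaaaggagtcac
Rims1: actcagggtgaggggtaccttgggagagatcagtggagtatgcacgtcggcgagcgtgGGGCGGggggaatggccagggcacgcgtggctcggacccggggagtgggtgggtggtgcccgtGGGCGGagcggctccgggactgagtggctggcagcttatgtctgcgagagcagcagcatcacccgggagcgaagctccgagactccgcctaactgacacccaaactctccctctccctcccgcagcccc
All matches in the 3 sequences are GC boxes, 3 in Syt2, 2 in Sv2c and 2 in Rims1. Promoters were matched for 29 of the 38 members, and those not matched were Syn3, Syngr3, Syt4, Syt5, Syt7, Snap25, Vamp2, Dnajc5 and Rims2. A GC box was found in 20 of the 29, in 13 of the 21 matched members that fell from WO to MO, and in 52.9% of 13509 promoters of genes in the table. The E-box was found in 2 of the 29 and in 7.84% of all, and the cAMP response element in 2 of the 29, both among the members that fell, and in 2.48% of all. A match describes the letters in the window and not a bound site.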

How the data were processed

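RNA-Seq values of 16 mouse spinal cords were used as deposited. By the submitters' notes the authors trimmed with Trimmomatic, mapped to mm10 by TopHat, derived FPKM in Cufflinks, dropped genes mostly at 0, and deposited log2(1 + FPKM) adjusted for 2 library batches with ComBat. Tool versions, annotation and ComBat covariates are not stated. After adjustment 915 values in 542 genes were below 0, none of them in a member.

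Each pair of groups was fitted on its own mice in limma 3.58.1 (R 4.3.3, lmFit and eBayes, two-sided), the second group minus the first, with Benjamini-Hochberg FDR over all 18167 genes. The difference of the age change was a contrast of the 4 group means. The procedure was tested on simulated data. Other work used Python 3.11.15, NumPy 2.4.6, pandas 2.3.3, SciPy 1.17.1 and matplotlib 3.10.9.

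Every mouse's values are given for members that passed, up to 4 higher and 4 lower per comparison by fold change, and for the member of each role with the smallest p in WO vs. MO. Of other lists, up to 4 genes past FDR 0.05 and 1.5-fold are named, or else the smallest p. Some genes that this rule selects are not reported here. Further members were named after their values were seen. The members, the roles, the marker, presynaptic and postsynaptic lists and the pairs of relatives were chosen with earlier results of these data known. Alternatives were batch 1 alone, batch as a term, genes with a mean of at least 1, all groups in 1 fit, quantile normalization, centring on neuron markers, a pseudocount of 0.1, an intensity trend, the replicate number as a block, each mouse left out, and both 294-day WO mice left out.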

Additional observations from a re-analysis of the deposited data

Results flagged for a closer look

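Within groups of 5 mice a value was picked out when its gap to the nearest mouse was large against the range of the group, and groups of 3 were not tested. Chance picks out about 1 in 20 groups, so 3.8 of the 76 member groups would be expected, and 4 were found. These were Syt5 in WO4 at 4.25 and in MO1 at 4.02, Stx1a in WO4 at 3.44 and Unc13b in WO3 at 1.75, all on the log2(1 + FPKM) scale. Of the sex-linked genes, Xist was at 3.21 in MO5, and the Y-linked genes Ddx3y, Uty and Eif2s3y were at 1.95, 1.05 and 1.82 there. Kdm5d was at 1.07 in the same mouse. The label of MO5 is male, and why its values differ was not tested.

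The change with age differed between genotypes, by the limma contrast on all 16 mice, in 20 members. On the log2 scale the vesicle membrane genes among them were Syn1 at -0.47, Syn2 at -0.28, Syn3 at -0.53 and Sv2b at -0.57. The synaptotagmins were Syt2 at -1.16 and Syt7 at -0.37. Fusion genes were Snap25 at -0.50, Vamp1 at -0.53, Cplx1 at -0.51, Cplx2 at -0.43, Nsf at -0.45 and Dnajc5 at -0.28. Active zone genes were Rims1 at -0.82, Bsn at -0.52 and Pclo at -0.46. Retrieval genes were Dnm1 at -0.57, Amph at -0.31, Synj1 at -0.39, Sh3gl2 at -0.43 and Snap91 at -0.27. Without WY1 the values of Syn3, Syt2, Dnajc5, Rims1 and Bsn were smaller by over 1.5 times, at -0.33, -0.67, -0.18, -0.54 and -0.35, and Syn3, Dnajc5, Bsn, Amph (-0.23) and Synj1 (-0.29) did not pass. After centring on neuron markers Syn2, Syt7, Dnajc5, Amph and Snap91 were at -0.15, -0.24, -0.15, -0.19 and -0.14, and of these Syt7 alone passed.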

How the results depend on the processing

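Of the 28 members that passed in WO vs. MO, 17 passed under all 20 alternatives, as did 17 of 27 in MY vs. MO (16 alternatives) and 9 of 20 in the contrast of age changes (25 alternatives). No member that passed changed sign. Within batch 1 alone 0 members rose in WO vs. MO, 11 passed in the contrast, and 0 passed there with 1.5-fold. Without both 294-day WO mice these were 0 rising and 1 with 1.5-fold. The cause of these losses was not tested, and both settings leave fewer mice. The share of all genes that fell in WO vs. MO also went from 12.9% to 5.86% and 6.85%. In the contrast the share that was negative and passed went from 7.19% to 4.35% and 4.02%. Leaving out 1 mouse gave 1 to 3 rising members in WO vs. MO, and 1 to 7 members past 1.5-fold in the contrast. Quantile normalization gave 6 there. In 1 fit of 4 groups 1 member was past 1.5-fold in WO vs. MO and 1 in MY vs. MO.

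The single call in WY vs. WO became 0 with batch 1 alone, quantile normalization, centring on neuron markers, the 0.1 pseudocount, and without the 294-day mice, and 0 to 1 with 1 mouse left out. In 1 fit of 4 groups 1 member passed, Cplx1 and not Sypl. The member median without 1 mouse was 0.023 to 0.13 in WY vs. MY and 0.0093 to 0.14 in WY vs. WO.

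Centring on neuron markers gave member medians of -0.18 in WO vs. MO, -0.18 in MY vs. MO and -0.20 in the contrast, while the all-gene medians moved to 0.06, 0.10 and 0.13. Centring subtracts the same value from all genes of a mouse, so the gap between the 2 medians cannot change. The marker mean includes Lpl and Sla, which rose in MO, so the value subtracted reflects less than the decrease of the other markers. In WY vs. MY and WY vs. WO the all-gene medians moved to -0.07 and -0.03, and the member medians fell by the same shifts. The deposited table holds no read counts, so no limit from counting was set.

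Mice were not paired by replicate number, as in no comparison did all same-numbered mice deviate together at a correlation above 0.1 across genes. The correlations were -0.21 to 0.09 between WO and MO, 0.085 to 0.18 between MY and MO, -0.13 to 0.38 between WY and WO and -0.20 to -0.02 between WY and MY, and for 1 of 5 WO mice the best match had its own number. With a replicate block 22 members fell and 3 rose in WO vs. MO, and 23 passed in MY vs. MO. In the contrast 18 passed, with 0 in WY vs. WO and 0 in WY vs. MY. Of all genes 9.89% then fell in WO vs. MO and 9.31% in MY vs. MO, and 6.09% were negative in the contrast. The calls that did not pass with the block were Syp, Slc17a6 (0.0585) and Slc17a7 (0.0677) in WO vs. MO, Syp, Snap25, Napb, Rab3a, Sh3gl2 and Snap91 in MY vs. MO, Dnajc5 and Bsn in the contrast, and Sypl in WY vs. WO, while Slc17a7 and Sypl passed in MY vs. MO. In MY vs. MO and WY vs. WO the block also sets aside the old mice numbered 4 and 5, which have no young mouse of their number, and Slc17a7 and Sypl passed with batch 1 alone too. No other call changed.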
